A study of Homo sapiens with 20 samples.

Results

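Tumour samples given a heat-clearing treatment were compared with samples given a yin-nourishing treatment, gene by gene, in 10 of the 20 samples of a series on SW1990, an established human line of pancreatic ductal adenocarcinoma. The 5 heat-clearing samples carry a label for the principle of clearing heat together with removing dampness. The 5 yin-nourishing samples carry a label for eliminating heat through the nourishing of yin. Samples were assigned by the treatment in their labels, and all rows of the deposited count table were used. Everything the 10 samples have in common was shared by both groups: the SW1990 source, a diagnosis of pancreatic cancer and a setting that the series describes as a mouse model treated with traditional Chinese medicine (TCM). No sample is labelled as untreated, so each value below sets one treatment against the other. Each sample title also ends in a letter, b or C, which the sources do not explain. The letter was C in heat-clearing replicates 02, 07 and 09 and in yin-nourishing replicate 05, and b in the others. The sources do not name herbs, doses, duration, strain or age, or say whether the replicates were different mice, tumours or cultures, so that p-values measure only the spread between these samples, which may be technical.

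In Chinese medicine, heat-clearing and yin-nourishing formulas are both used against signs described as heat, the first directly and the second by replenishing fluids. Pancreatic ductal adenocarcinoma cells are known for high glucose uptake and lactate output, for mucin and keratin expression typical of ductal epithelium, and for reliance on autophagy and on stress pathways that supply amino acids. SW1990 cells grown in mice form tumours in which the cancer cells are human while stroma, vessels and immune cells come from the host.

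Total counts were 89.99 to 135 M (M, mega) per library in the heat-clearing group and 83.3 to 104.6 M in the yin-nourishing group. The Pearson correlation of log2 CPM (counts per M counts) between any 2 of the 10 libraries was 0.923 to 0.98. The epithelial markers summed to 1895 to 3292 CPM of all counts in heat-clearing samples and 1935 to 2553 CPM in yin-nourishing samples, as a ductal line would show. Heat-clearing replicates 01 and 02 stood apart from the other 8 libraries. RN7SK, a structural RNA that holds the elongation factor P-TEFb inactive, took 5.25, 6.07, 1.78, 2.28 and 2.05% of counts in heat-clearing replicates 01, 02, 03, 07 and 09, against 2.19, 1.81, 2.2, 2.06 and 2.05% in yin-nourishing replicates 01, 04, 05, 07 and 10. The mean difference was 1.43 percentage points (two-sided exact permutation test, p = 0.254, where 0.00794 is the smallest p that 5 against 5 samples allow). Relative to the mean of the yin-nourishing libraries, expression increased with transcript GC content by 0.43 and 0.40 on the log2 scale per 10% GC in these same 2 libraries. The slope was −0.10 to 0.085 in heat-clearing replicates 03, 07 and 09, against −0.11 to 0.11 in the yin-nourishing replicates. With 3 blood-activating libraries, heat-clearing replicates 01 and 02 form the RN7SK-high libraries, and values of genes that they move by more than 1.5 times are given with and without them.

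**Figure D1:**
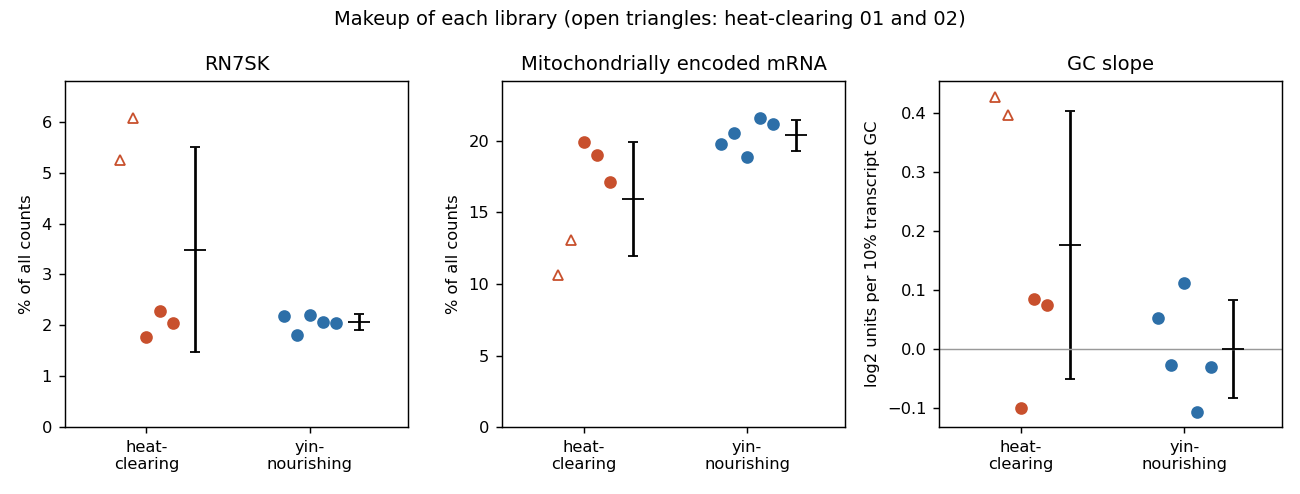
Share of counts taken by RN7SK and by mitochondrially encoded mRNA (percent of all counts), and slope of expression on transcript GC content (log2 units per 10% GC), by library, with heat-clearing on the left and yin-nourishing on the right of each panel. Open triangles are heat-clearing replicates 01 and 02, filled circles are the other libraries, and bars show the mean and SD of 5 libraries; the 2 triangles lie at RN7SK shares of 5.25 and 6.07%, while all circles lie between 1.78 and 2.28%.

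No gene differed between the treatments after adjustment. Of 24790 genes tested with edgeR's quasi-likelihood F-test, 0 passed a Benjamini-Hochberg adjusted p of 0.05 (0%), and no adjusted p was below 0.456, a value that 925 genes had in common. At an unadjusted p under 0.05 there were 2547 genes (10.3%), with 1753 higher (7.07%) and 794 lower (3.2%) in heat-clearing samples. Limma voom also called 0 genes, with 2934 at an unadjusted p under 0.05, whereas DESeq2 called 26, 22 of them higher, with 2848 at an unadjusted p under 0.05. Among the DESeq2 calls were TMUB2 (adjusted p = 0.00146), BICDL1 (0.0111), AC068580.4 (0.0237), NPIPB15 (0.025), TEDC1 (0.0361), TGIF1 (0.0385) and the antisense gene AC023908.3 (0.0237). The other calls were mostly genes near or under 1 CPM.

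Leaving out the RN7SK-high libraries changed this picture. Then 3 heat-clearing samples were set against 5 yin-nourishing samples, 28334 genes were tested, 0 passed (0%; smallest adjusted p = 1 by edgeR), and 1235 had an unadjusted p under 0.05 (4.36%), with 833 higher (2.94%) and 402 lower (1.42%) in heat-clearing samples. This fit also tested genes that the fit of all samples did not. Of the 24727 genes tested in both, 453 were higher and 348 lower at an unadjusted p under 0.05 without those libraries. Of the 2547 genes at an unadjusted p under 0.05 in all 10 samples, 524 were there again in the same direction. The base composition of these genes differed between the settings as well. With all samples the median transcript GC content was 57.2% for the higher genes and 42.9% for the lower genes, against 47.8% over all genes tested. Without the RN7SK-high libraries it was 48.6% and 46.6%, against 47.7% over all genes tested there. With the GC slope of each library as a covariate, a fit added after the data were seen, 1067 genes had an unadjusted p under 0.05.

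A stricter description asks that all 5 heat-clearing values lie above, or all below, all 5 yin-nourishing values in normalised CPM. This held for 288 of the 24790 genes (1.16%), 183 higher (0.738%) and 105 lower (0.424%) in heat-clearing samples. Under random labels, 5 against 5 samples without ties separate at a rate of 0.00794, both directions together. With a strict filter of 1 CPM in 5 samples, 184 of 15483 genes did not overlap, and 101 of them were higher. Of the 288, 134 also had an unadjusted p under 0.05 when heat-clearing replicates 01 and 02 were set aside, a count over samples that the first count already used. Both counts include genes without any count in yin-nourishing samples, such as AL359921.2, which averaged 0.309 CPM in heat-clearing samples. The genes described next come from a ranking by p within each direction or from lists of pathway members. Their values are normalised CPM in the order of replicates 01, 02, 03, 07 and 09 for heat-clearing and 01, 04, 05, 07 and 10 for yin-nourishing. Fold changes are log2 ratios of heat-clearing over yin-nourishing, each with its standard error (SE) where given, p-values with them are unadjusted values of edgeR's test, and means are given with the SD of the 5 samples.

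Among genes with a mean log2 CPM of 0 or more the smallest p belonged to TMUB2, which encodes a membrane protein with a ubiquitin-like domain, and CALHM2, a member of the calcium homeostasis modulator channel family, was also among the leading genes. RAD50, a subunit of the complex that senses and tethers DNA double-strand breaks, was among the leading genes that were lower. FAS, the death receptor bound by FAS ligand, was the leading lower member of the list of cell death regulators. Their promoters are printed for reference. The differences between libraries went with the GC content of transcripts, and a relation to promoter composition was not tested. The sequences are the 250 bases before the most upstream start in the RefSeq promoter table (build GRCh38.p14), which held 25 of the 35 genes named by rank. These 4 genes were chosen after their values were seen. Capitals mark CG dinucleotides.
TMUB2: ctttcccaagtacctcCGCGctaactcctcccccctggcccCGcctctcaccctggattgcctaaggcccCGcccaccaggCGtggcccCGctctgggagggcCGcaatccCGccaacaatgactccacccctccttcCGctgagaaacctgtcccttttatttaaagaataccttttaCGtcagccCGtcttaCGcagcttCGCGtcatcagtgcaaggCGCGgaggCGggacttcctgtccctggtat
CALHM2: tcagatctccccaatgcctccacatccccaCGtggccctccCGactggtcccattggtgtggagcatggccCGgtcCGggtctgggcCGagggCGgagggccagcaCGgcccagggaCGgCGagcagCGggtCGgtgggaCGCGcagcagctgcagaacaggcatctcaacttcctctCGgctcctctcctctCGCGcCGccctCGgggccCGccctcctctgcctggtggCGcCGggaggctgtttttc
RAD50: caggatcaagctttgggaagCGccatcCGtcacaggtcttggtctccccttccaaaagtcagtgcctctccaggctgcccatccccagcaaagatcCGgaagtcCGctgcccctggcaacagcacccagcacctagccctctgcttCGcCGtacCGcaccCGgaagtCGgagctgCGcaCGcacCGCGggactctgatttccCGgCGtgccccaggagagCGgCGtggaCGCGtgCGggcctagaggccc
FAS: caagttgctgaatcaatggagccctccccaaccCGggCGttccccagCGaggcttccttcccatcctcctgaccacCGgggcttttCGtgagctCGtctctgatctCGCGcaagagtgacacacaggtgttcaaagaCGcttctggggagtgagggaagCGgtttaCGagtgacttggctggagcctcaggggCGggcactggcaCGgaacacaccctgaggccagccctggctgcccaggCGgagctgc
The TMUB2 window lies at chr17:44186722-44186971 on the plus strand, holds 17 CG dinucleotides and is 61.2% GC. The CALHM2 window lies at chr10:103452371-103452620 on the minus strand, holds 21 and is 70.4% GC. The RAD50 window, at chr5:132556727-132556976 on the plus strand, holds 20 and is 66% GC. It lies inside RAD50 as GENCODE annotates the gene, whose start there is further upstream. The FAS window, at chr10:88990548-88990797 on the plus strand, holds 14 and is 62.8% GC. All 4 were above the medians of 27305 promoters in the table, 10 CG dinucleotides and 57.6% GC, whether the gene was higher or lower in heat-clearing samples. The 25 matched genes named by rank had medians of 18 CG dinucleotides and 62.8% GC, so values above the medians of all promoters are not particular to these 4. The GC content of the transcripts was 56.1% for TMUB2 and 59.7% for CALHM2, and 41.4% for RAD50.

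TMUB2 (chr17:44186970-44191731, plus strand, hg38) stood at 15.4, 17.9, 12.3, 12.5 and 14.2 CPM in heat-clearing samples, against 7.59, 7.8, 9.49, 8.12 and 10.5 CPM in yin-nourishing samples. The groups did not overlap, and replicates 01 and 02 were the highest of the heat-clearing samples. The difference was 0.73 ± 0.15 on the log2 scale (unadjusted p = 6.2e-05) and 0.58 without the RN7SK-high libraries. CALHM2 (chr10:103446786-103452402, minus strand) stood at 19.6, 11.3, 11.1, 11.3 and 16.6 CPM in heat-clearing samples, against 8.43, 9.04, 8.76, 9.25 and 7.65 CPM in yin-nourishing samples. Every heat-clearing value was above every yin-nourishing value, with a log2 fold change 0.70 ± 0.17 (SE, unadjusted p = 0.000579) and 0.60 without the RN7SK-high libraries. CD320 (chr19:8302127-8308356, minus strand), the receptor that takes up transcobalamin-bound vitamin B12, stood at 12.6, 13.1, 7.52, 6.31 and 8.14 CPM in heat-clearing samples, against 5.28, 4.74, 5.71, 4.45 and 4.69 CPM in yin-nourishing samples. Its groups did not overlap either, although the 2 RN7SK-high libraries were well above the other heat-clearing samples, and the log2 fold change 0.94 ± 0.24 (SE, unadjusted p = 0.000701) became 0.56 without them.

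NDRG4 (chr16:58462846-58513628, plus strand), a member of the NDRG family of cytoplasmic proteins, was even across the heat-clearing samples. It stood at 2.09, 2.31, 1.94, 2.41 and 2.39 CPM in heat-clearing samples, against 1.05, 0.599, 0.616, 1.75 and 0.933 CPM in yin-nourishing samples. The lowest heat-clearing value was above the highest yin-nourishing value, and the difference was 1.17 with all samples and 1.19 without the RN7SK-high libraries. RNF122, a RING-type ubiquitin ligase, averaged 2.34 ± 0.751 CPM in heat-clearing and 0.988 ± 0.286 CPM in yin-nourishing samples, with no overlap and a fold change of 1.24 ± 0.32. TEDC1, a partner of the delta and epsilon tubulins of centrioles, averaged 5.87 ± 2.79 CPM in heat-clearing and 2.18 ± 0.779 CPM in yin-nourishing samples, again with no overlap. Its fold change of 1.43 ± 0.34 went with values of 9.35 and 8.43 CPM in heat-clearing replicates 01 and 02, and was 0.82 without the RN7SK-high libraries. The histone gene H4-16 averaged 2.69 ± 1.04 CPM in heat-clearing and 0.659 ± 0.405 CPM in yin-nourishing samples, without overlap, at 2.03 ± 0.54.

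For the other leading higher genes the groups overlapped. BICDL1, a dynein cargo adaptor, stood at 3.92, 4.01, 1.69, 3.63 and 3.49 CPM in heat-clearing samples, against 1.41, 1.57, 1.8, 1.31 and 1.74 CPM in yin-nourishing samples. Heat-clearing replicate 03 lay among the yin-nourishing samples and the other 4 above all of them, with a log2 fold change 1.10 ± 0.25 (SE, unadjusted p = 0.000209). CCDC24 averaged 4.92 ± 1.92 CPM in heat-clearing and 2.12 ± 0.625 CPM in yin-nourishing samples (1.22, and 0.79 without the RN7SK-high libraries). TST, the mitochondrial thiosulfate sulfurtransferase rhodanese, averaged 7.23 ± 3.89 CPM in heat-clearing and 2.87 ± 1.34 CPM in yin-nourishing samples. In TST the 2 RN7SK-high libraries held 10.9 and 11.98 CPM and the other 3 heat-clearing samples 3.69 to 5.45 CPM, and the fold change of 1.33 became 0.63 without them. NPIPB15, which averaged 1.68 ± 0.641 CPM in heat-clearing and 0.618 ± 0.178 CPM in yin-nourishing samples, belongs to a family of near-identical copies, so its reads may be split among them.

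**Figure D2:**
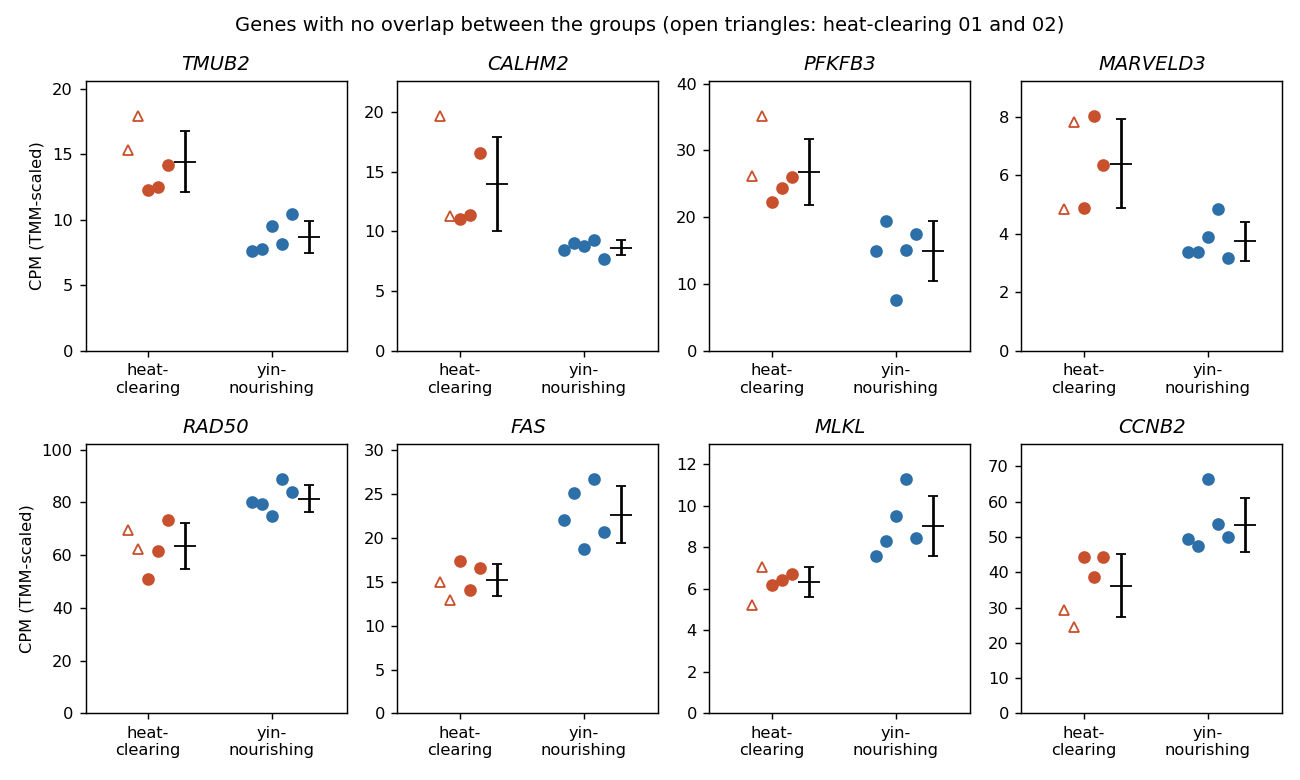
Normalised CPM of 8 genes by library, with heat-clearing on the left and yin-nourishing on the right of each panel; open triangles are heat-clearing replicates 01 and 02, filled symbols the other libraries, and bars the mean and SD of 5 libraries. In each panel the 5 heat-clearing values lie on one side of the 5 yin-nourishing values, above them for TMUB2, CALHM2, PFKFB3 and MARVELD3 and below them for RAD50, FAS, MLKL and CCNB2; for MARVELD3 the nearest values of the groups are both 4.86 CPM when rounded.

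Leading lower genes included RAD50 and TGIF1. RAD50 (chr5:132556019-132646344, plus strand) stood at 69.4, 62.3, 50.9, 61.7 and 73.2 CPM in heat-clearing samples, against 80.3, 79.2, 74.9, 88.9 and 84.1 CPM in yin-nourishing samples. All heat-clearing values were below all yin-nourishing values, with a log2 fold change -0.36 ± 0.10 (SE, unadjusted p = 0.00113) and -0.39 without the RN7SK-high libraries. RAD50 shares 7784 exonic bases with AC116366.3 on the same strand. No counts of AC116366.3 were available to be summed with it, so a division of reads between the 2 could not be examined. TGIF1 (chr18:3411608-3459978, plus strand), a homeobox repressor of the SMAD branch of TGF-beta signalling, stood at 22.3, 19.8, 19.9, 22.9 and 24.1 CPM in heat-clearing samples, against 26.97, 29.8, 28.1, 27.4 and 32.4 CPM in yin-nourishing samples. The groups did not overlap, and heat-clearing replicates 01 and 02 lay close to the other 3, giving -0.41 ± 0.11 with all samples and -0.37 without the RN7SK-high libraries.

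SOD3 (chr4:24789912-24800842, plus strand), the extracellular superoxide dismutase, stood at 9.47, 9.48, 11.7, 11.1 and 10.5 CPM in heat-clearing samples, against 14.4, 14.3, 13.1, 17.9 and 19.9 CPM in yin-nourishing samples. Every heat-clearing sample was lower than every yin-nourishing sample, with a log2 fold change -0.61 ± 0.16 (SE, unadjusted p = 0.00112). CSTF3, a subunit of the cleavage stimulation factor for mRNA 3' ends, averaged 18.9 ± 1.76 CPM in heat-clearing and 25.3 ± 1.47 CPM in yin-nourishing samples without overlap, at -0.42 ± 0.12. ZFAND6, a zinc finger protein of the AN1 type, averaged 46.1 ± 2.28 CPM in heat-clearing and 59.05 ± 5.79 CPM in yin-nourishing samples, also without overlap, at -0.36 ± 0.11. C9orf152 averaged 8.4 ± 1.83 CPM in heat-clearing and 13.3 ± 2.28 CPM in yin-nourishing samples and did not overlap either, at -0.67 ± 0.19. The antisense gene AC023908.3 averaged 0.845 ± 0.342 CPM in heat-clearing and 2.28 ± 0.6 CPM in yin-nourishing samples, without overlap, and since no source states the strand setting of the counting, its reads cannot be told apart from those of a gene on the opposite strand. The same limit holds for exonic bases that other named genes share with the opposite strand. Among them are CALHM2 (605 bases shared with AL139339.2), LRIG2 (1563 with RLIMP2) and TMEM179B (454 with TMEM223). CCDC24 (404 with SLC6A9) and CSTF3 (392 with TCP11L1) are others.

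FUNDC1, COA6 and MTIF3, which encode mitochondrial proteins, also ranked among the lower genes, whereas TST, another such gene, ranked among the higher. FUNDC1, a receptor for mitophagy on the outer mitochondrial membrane, stood at 4.22, 3.52, 2.95, 4.93 and 5.06 CPM in heat-clearing samples, against 9.29, 8.86, 7.52, 7.24 and 6.52 CPM in yin-nourishing samples. The highest heat-clearing value was below the lowest yin-nourishing value, with a log2 fold change -0.93 ± 0.30 (SE, unadjusted p = 0.00528) and -0.87 without the RN7SK-high libraries. COA6, an assembly factor of cytochrome c oxidase, stood at 6.13, 6.4, 7.06, 7.59 and 6.55 CPM in heat-clearing samples, against 8.43, 10.3, 10.03, 7.86 and 15.5 CPM in yin-nourishing samples. Its groups did not overlap, and yin-nourishing replicate 10 was well above the other yin-nourishing samples, at a fold change of -0.63 ± 0.17. MTIF3, an initiation factor of mitochondrial translation, averaged 26.5 ± 6.88 CPM in heat-clearing and 40.7 ± 9.95 CPM in yin-nourishing samples with overlap, and its -0.62 became -0.37 without the RN7SK-high libraries.

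Other genes led the ranking once the RN7SK-high libraries were left out. EML1, a microtubule-associated protein, averaged 18.004 ± 2.92 CPM in heat-clearing and 11.98 ± 2.38 CPM in yin-nourishing samples, at 0.59 ± 0.20 with all samples and 0.69 without those libraries. LRIG2, a membrane protein that modulates growth factor receptors, stood at 39.2, 37.01, 48.8, 47.2 and 40.7 CPM in heat-clearing samples, against 34.3, 36.4, 30.7, 36.3 and 36.3 CPM in yin-nourishing samples. Its groups did not overlap, and the 2 RN7SK-high libraries were the lowest of the heat-clearing samples, at 0.29 and 0.39. EPM2A, the glycogen phosphatase laforin, averaged 4.03 ± 1.36 CPM in heat-clearing and 2.75 ± 0.496 CPM in yin-nourishing samples (0.55, and 0.81). Lower in heat-clearing samples were TENM4, a teneurin adhesion protein, at 1.5 ± 0.779 CPM in heat-clearing and 2.65 ± 0.683 CPM in yin-nourishing samples (-0.82, and -1.40), and PDCD6, a calcium-binding protein of membrane repair and vesicle coats, at 21.4 ± 2.54 CPM in heat-clearing and 28.3 ± 4.64 CPM in yin-nourishing samples (-0.40, and -0.47). TMEM179B, ranked with all samples, averaged 28.3 ± 5.48 CPM in heat-clearing and 40.2 ± 3.89 CPM in yin-nourishing samples (-0.51, and -0.35).

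Mitochondrially encoded mRNA took 10.6, 13.1, 19.9, 19.02 and 17.1% of counts in heat-clearing replicates 01, 02, 03, 07 and 09, against 19.8, 20.5, 18.9, 21.6 and 21.1% in yin-nourishing replicates 01, 04, 05, 07 and 10. The mean difference was −4.43 percentage points (two-sided exact permutation test, p = 0.0397) and was carried largely by heat-clearing replicates 01 and 02, without which it was −1.7 (exact p = 0.143). It also missed 0.05 when heat-clearing replicate 01 or yin-nourishing replicate 01, 04, 07 or 10 alone was left out, with exact p of 0.0556 to 0.0873. Of the 13 mitochondrial mRNAs, all tested, 12 were lower, 8 at an unadjusted p under 0.05, with a median log2 fold change of −0.39, against 0.05 over all genes tested. MT-CO2, a core subunit of cytochrome c oxidase, stood at 11424, 14144, 35130.5, 27248 and 25884 CPM in heat-clearing samples, against 33549.6, 35593, 30783, 39508 and 37702 CPM in yin-nourishing samples. Without the RN7SK-high libraries 12 of 13 were still lower, but 0 had an unadjusted p under 0.05 and the median was −0.12. In these bulk samples, fewer cells of a type and less RNA per cell cannot be told apart.

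The 46 nuclear-encoded subunits of the respiratory chain were split, with 26 higher and 20 lower at a median of 0.08, 8 of them higher and 6 lower at an unadjusted p under 0.05. The median was −0.12 and 33 were lower without the RN7SK-high libraries. UQCRB, a subunit of complex III, was the only listed subunit without overlap that had an unadjusted p under 0.05 in both settings. It stood at 62.02, 49.4, 72.8, 64.7 and 66.5 CPM in heat-clearing samples, against 82.6, 86.6, 73.4, 86.9 and 85.6 CPM in yin-nourishing samples. Its fold change was -0.40 ± 0.13, and -0.28 without the RN7SK-high libraries. NDUFA4, a subunit associated with cytochrome c oxidase, averaged 155.06 ± 38.5 CPM in heat-clearing and 226.34 ± 33.7 CPM in yin-nourishing samples (-0.55 ± 0.16, and -0.35 without the RN7SK-high libraries). NDUFA2, of complex I, averaged 10.2 ± 4.22 CPM in heat-clearing and 18.2 ± 3.5 CPM in yin-nourishing samples (-0.84 ± 0.26, and -0.45), with the RN7SK-high libraries the lowest of the 10. COX5B and ATP5F1D, of complexes IV and V, went the other way at 1.27 and 1.27, values that were 0.30 and 0.51 without the RN7SK-high libraries.

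Lists of pathway genes are set against the share of all 24790 genes with a positive fold change, 54.4%, and 51.3% without the RN7SK-high libraries. At an unadjusted p under 0.05 by edgeR, 7.07% of all genes were higher and 3.2% lower. Without the RN7SK-high libraries these shares were 2.94% and 1.42%. Of the 24727 genes tested in both settings, from which the list members come, 453 were higher and 348 lower at that p without those libraries. Glycolysis genes were mostly higher in heat-clearing samples. Of 20 glycolysis genes, all tested, 16 were higher, 4 at an unadjusted p under 0.05 and 0 passing after adjustment, with a median of 0.16. Their summed share of all counts overlapped between the groups, with medians of 10630 CPM in heat-clearing and 10730 CPM in yin-nourishing samples. ALDOA, an aldolase, was at 179.5 CPM in yin-nourishing replicate 07 and at 703.6 to 878.8 CPM in the other yin-nourishing samples. Without the RN7SK-high libraries 18 of 20 were higher with a median of 0.14, against 0.01 over all genes, and 1 had an unadjusted p under 0.05. That gene was PFKFB3, whose enzyme makes the fructose 2,6-bisphosphate that activates phosphofructokinase, and which stood at 26.2, 35.1, 22.2, 24.4 and 25.97 CPM in heat-clearing samples, against 14.9, 19.5, 7.65, 15.02 and 17.6 CPM in yin-nourishing samples. All heat-clearing values were above all yin-nourishing values, and yin-nourishing replicate 05 was the lowest of the 10. The log2 fold change 0.84 ± 0.24 (SE, unadjusted p = 0.00228) was 0.70 without the RN7SK-high libraries (unadjusted p = 0.0069).

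Other members overlapped between the groups. ALDOC, an aldolase, averaged 24.02 ± 5.65 CPM in heat-clearing and 17.1 ± 2.68 CPM in yin-nourishing samples (0.49 ± 0.17, and 0.28 without the RN7SK-high libraries). SLC16A3, the lactate exporter MCT4, stood at 71.2, 59.5, 19.04, 31.1 and 30.2 CPM in heat-clearing samples, against 29.6, 26.01, 28.96, 16.1 and 19.4 CPM in yin-nourishing samples. The 2 RN7SK-high libraries held the highest values of the 10, and the fold change of 0.81 became 0.16 without them. PFKL, the liver-type phosphofructokinase, behaved alike, with 0.75 against 0.28. Among 30 listed hypoxia targets, 28 were tested, of which 18 were higher with a median of 0.09, and 22 were higher with a median of 0.12 without the RN7SK-high libraries. PFKFB4, the sister enzyme of PFKFB3, averaged 20.3 ± 3.43 CPM in heat-clearing and 14.4 ± 4.38 CPM in yin-nourishing samples with overlap, at 0.49 ± 0.20 and 0.52. KDM4B, a histone demethylase, was at 0.39 and at 0.09 without those libraries.

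**Figure D3:**
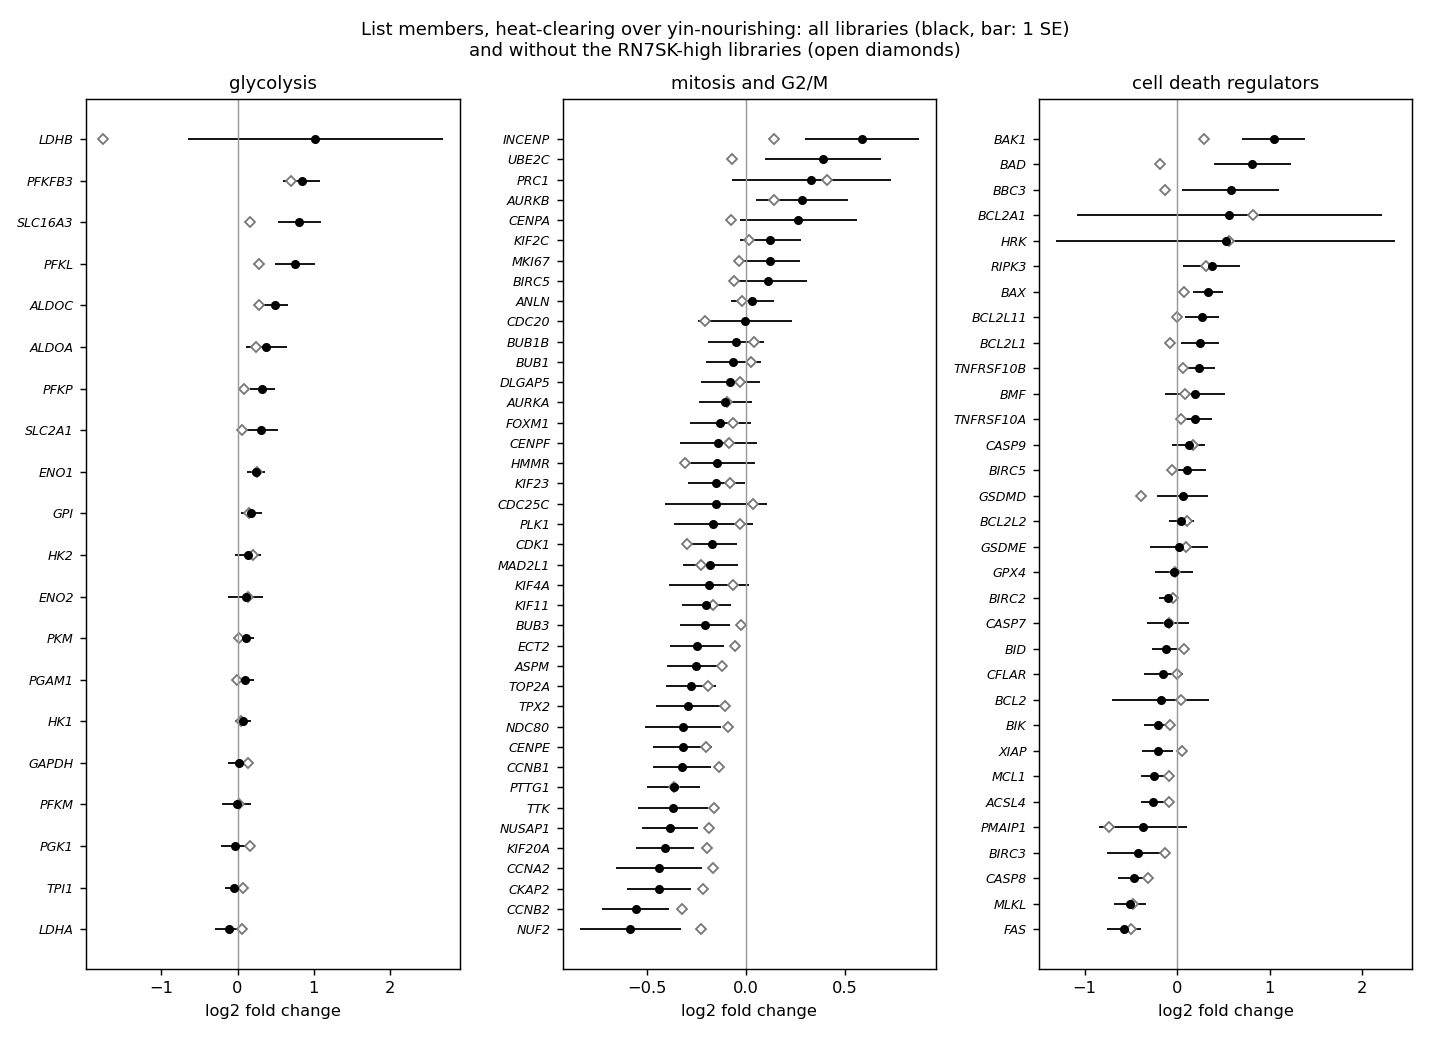
Log2 fold change, heat-clearing over yin-nourishing, of the members of 3 lists (glycolysis, mitosis and G2/M, cell death regulators, with 1 tested member of the third list not shown); black circles with bars of 1 SE use all samples and open diamonds leave out the RN7SK-high libraries. PFKFB3 is at 0.84 and 0.70, CCNB2 at −0.56 and −0.33, and FAS at −0.58 and −0.49 in the 2 settings, while SLC16A3 and BAK1 move closer to 0 in the second.

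Genes of mitosis were mostly lower in heat-clearing samples. Of 40 mitosis and G2/M genes, all tested, 31 were lower and 9 higher, with 10 lower and 0 higher at an unadjusted p under 0.05 and a median of −0.17. Without the RN7SK-high libraries 33 were lower, 3 of them at an unadjusted p under 0.05, with a median of −0.09. The summed share of all counts was not lower, with medians of 3590 CPM in heat-clearing and 3558 CPM in yin-nourishing samples. Its ranges overlapped, at 2926 to 3644 CPM and 3332 to 4569 CPM in the same order. CCNB2, a B-type cyclin that drives entry into mitosis, stood at 29.3, 24.4, 44.3, 38.8 and 44.2 CPM in heat-clearing samples, against 49.5, 47.4, 66.5, 53.6 and 49.9 CPM in yin-nourishing samples. The groups did not overlap, and heat-clearing replicates 01 and 02 were the lowest of the 10, with a log2 fold change -0.56 ± 0.17 (SE, unadjusted p = 0.00291) and -0.33 without the RN7SK-high libraries. PTTG1, the separase inhibitor securin, averaged 52.1 ± 7.24 CPM in heat-clearing and 67.2 ± 9.08 CPM in yin-nourishing samples with overlap, and its -0.37 was -0.36 without those libraries. KIF20A, a kinesin of cytokinesis, averaged 55.9 ± 13.8 CPM in heat-clearing and 74.2 ± 9.16 CPM in yin-nourishing samples, with -0.41 against -0.20. CKAP2, a spindle protein, averaged 168.4 ± 39.3 CPM in heat-clearing and 228.93 ± 22.5 CPM in yin-nourishing samples with overlap, at -0.44 and -0.22.

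Genes of DNA replication went the other way with all samples. Of 36 replication genes, 27 were higher with a median of 0.14, 4 at an unadjusted p under 0.05 and 1 lower, and 19 were higher with a median of 0.02 without the RN7SK-high libraries. CDT1, the licensing factor that loads the MCM helicase, averaged 11.4 ± 3.65 CPM in heat-clearing and 6.73 ± 1.68 CPM in yin-nourishing samples (0.75, and 0.44 without the RN7SK-high libraries). RFC4, a subunit of the clamp loader, averaged 6.02 ± 1.06 CPM in heat-clearing and 8.84 ± 2.31 CPM in yin-nourishing samples (-0.55, and -0.43). In the 36 DNA repair genes, which include RAD50, 23 were lower with a median of −0.09. At an unadjusted p under 0.05, 4 were higher and 1 lower, where 7.07% of all genes tested were higher and 3.2% lower. RAD54L, a motor protein of homologous recombination, averaged 5.29 ± 1.39 CPM in heat-clearing and 2.75 ± 1.02 CPM in yin-nourishing samples (0.94 ± 0.28). Its paralogue RAD54B, outside that list, averaged 15.7 ± 2.94 CPM in heat-clearing and 22.4 ± 2.06 CPM in yin-nourishing samples without overlap (-0.51 ± 0.14). RAD54B shares 3139 exonic bases on the same strand with FSBP. Their sum was at -0.42 ± 0.14, and there the groups overlapped, with 25.7 CPM in heat-clearing replicate 03 and 21.9 CPM in yin-nourishing replicate 05. RECQL4, a helicase, was at 0.96, and at 0.33 without the RN7SK-high libraries.

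FAS and MLKL were lower in heat-clearing samples without overlap, in a list that was even. Of 33 cell death regulators, all tested, 17 were higher and 16 lower, with a median of 0.02 that was −0.02 without the RN7SK-high libraries and also changed sign under upper quartile scaling. At an unadjusted p under 0.05 there were 4 lower and 1 higher. FAS stood at 14.9, 12.9, 17.4, 14.1 and 16.6 CPM in heat-clearing samples, against 22.1, 25.1, 18.8, 26.8 and 20.7 CPM in yin-nourishing samples. Every heat-clearing value was below every yin-nourishing value, with a log2 fold change -0.58 ± 0.19 (SE, unadjusted p = 0.0051) and -0.49 without the RN7SK-high libraries (unadjusted p = 0.00641). MLKL, the pore-forming executor of necroptosis, stood at 5.23, 7.08, 6.2, 6.45 and 6.74 CPM in heat-clearing samples, against 7.61, 8.31, 9.51, 11.3 and 8.46 CPM in yin-nourishing samples. Its groups did not overlap, with a log2 fold change -0.51 ± 0.17 (SE, unadjusted p = 0.00669) and -0.48 without those libraries (unadjusted p = 0.0182).

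CASP8, the initiator caspase recruited by FAS, stood at 33.4, 46.04, 61.4, 56.7 and 38.3 CPM in heat-clearing samples, against 63.7, 64.7, 69.9, 69.6 and 57.1 CPM in yin-nourishing samples. Heat-clearing replicate 03 lay above the lowest yin-nourishing sample, so the groups overlapped, with -0.46 ± 0.18 and -0.31 without the RN7SK-high libraries. BAK1, which permeabilises the outer mitochondrial membrane, was the higher member, at 29.3, 24.9, 5.23, 13.97 and 10.5 CPM in heat-clearing samples, against 10.6, 6.33, 8.34, 6.89 and 8.6 CPM in yin-nourishing samples. The RN7SK-high libraries held the 2 highest values, heat-clearing replicate 03 held the lowest of the 10, and 1.04 became 0.29 without the RN7SK-high libraries. FAS is also a p53 target, and in the 21 p53 targets 8 were higher and 13 lower with a median of −0.04, whereas 12 were higher and 9 lower without the RN7SK-high libraries, with a median near 0. FDXR, a mitochondrial ferredoxin reductase in that list, averaged 10.4 ± 4.25 CPM in heat-clearing and 5.9 ± 1.03 CPM in yin-nourishing samples (0.82, and 0.36 without the RN7SK-high libraries).

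DUSP4, a feedback phosphatase of ERK signalling, was lower in heat-clearing samples, and its relatives differed in direction. It stood at 211.27, 221, 325.29, 314.53 and 304.45 CPM in heat-clearing samples, against 352.19, 382.47, 337.33, 377.09 and 403.92 CPM in yin-nourishing samples. The groups did not overlap, with a log2 fold change -0.43 ± 0.13 (SE, unadjusted p = 0.00292) and -0.23 without the RN7SK-high libraries. DUSP6 averaged 96.6 ± 24.4 CPM in heat-clearing and 128.6 ± 19.3 CPM in yin-nourishing samples with overlap (-0.41, and -0.19). DUSP1 was at 0.14 and 0.11 and DUSP5 at 0.01 and -0.21 in the same order, neither at an unadjusted p under 0.05. All 4 belong to a list of 32 immediate early genes, of which 21 were higher and 11 lower with a median of 0.08. NAB2, a corepressor of early growth response factors in that list, averaged 9.51 ± 0.995 CPM in heat-clearing and 7.65 ± 0.659 CPM in yin-nourishing samples (0.31). PER1, a repressor of the circadian clock, was the lower gene with the smallest p without the RN7SK-high libraries (-1.17, unadjusted p = 0.00127). It stood at 11.1, 7.38, 4.1, 5.97 and 5.03 CPM in heat-clearing samples, against 12.04, 12.04, 10.9, 5.69 and 16.1 CPM in yin-nourishing samples, with yin-nourishing replicate 07 among the heat-clearing samples and heat-clearing replicate 01 among the yin-nourishing samples.

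Amino acid supply and the integrated stress response, in which the factor ATF4 raises synthesis and import of amino acids, had 33 listed genes, of which 32 were tested, 24 higher and 8 lower, with a median of 0.15. At an unadjusted p under 0.05, 6 of them were higher and 1 lower. Without the RN7SK-high libraries, where fewer samples remained, 19 were higher and 0 had an unadjusted p under 0.05, while the median was 0.13. SLC1A5, a glutamine transporter, averaged 70.4 ± 29.7 CPM in heat-clearing and 44.4 ± 8.22 CPM in yin-nourishing samples (0.66, and 0.15 without those libraries). PCK2, the mitochondrial phosphoenolpyruvate carboxykinase, averaged 4.45 ± 0.901 CPM in heat-clearing and 2.69 ± 0.964 CPM in yin-nourishing samples (0.73, and 0.52). PHGDH, the first enzyme of serine synthesis, averaged 7.17 ± 2.7 CPM in heat-clearing and 4.51 ± 0.386 CPM in yin-nourishing samples (0.67, and 0.29). NUPR1, a stress-induced chromatin protein, was low in all samples, at 0.712 ± 0.538 CPM in heat-clearing and 0.182 ± 0.155 CPM in yin-nourishing samples. ATF4 itself averaged 141.26 ± 17.7 CPM in heat-clearing and 166.19 ± 12.5 CPM in yin-nourishing samples (-0.23, and -0.12).

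The Notch pathway, in which ligands of neighbouring cells release the intracellular part of the receptor, had the highest median of the 38 lists other than cell type markers. Of 25 listed genes 24 were tested, 21 of them higher, with a median of 0.38 and 5 higher and 1 lower at an unadjusted p under 0.05. Without the RN7SK-high libraries 16 were higher and the median was 0.08. The ligand gene JAG2 stood at 68.1, 57.9, 21.97, 33.8 and 27.6 CPM in heat-clearing samples, against 29.9, 25.95, 26.5, 19.2 and 32.6 CPM in yin-nourishing samples. Heat-clearing replicates 01 and 02 were above all other samples, replicate 07 was just above the yin-nourishing range, and replicates 03 and 09 were within it. The fold change of 0.64 became 0.06 without the RN7SK-high libraries. RFNG, a glycosyltransferase that modifies the receptors, was at 0.75 and 0.03, and the target HES4 at 0.86 and 0.11. MAML1, a coactivator, was at 0.36 and 0.13.

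The median of the autophagy and lysosome genes also fell without the RN7SK-high libraries. Of 33, 20 were higher, 8 at an unadjusted p under 0.05, with a median of 0.11, and 19 were higher with a median of 0.02 without the RN7SK-high libraries. ATP6V0D1, a subunit of the proton pump of lysosomes, was at 0.78 and 0.17, and ULK1, the kinase that starts autophagy, at 0.48 and 0.29. Among 78 cytosolic ribosomal protein genes 46 were higher with a median of 0.09, and 22 were higher with a median of −0.08 without the RN7SK-high libraries, so the sign of their median changed with the libraries included. Of 24 cholesterol synthesis genes 12 were higher and 12 lower, and 9 were higher without the RN7SK-high libraries. With all samples 5 were higher at an unadjusted p under 0.05, among them NSDHL (0.55) and MVD (1.08), which were at 0.33 and -0.08 without the RN7SK-high libraries.

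**Figure D4:**
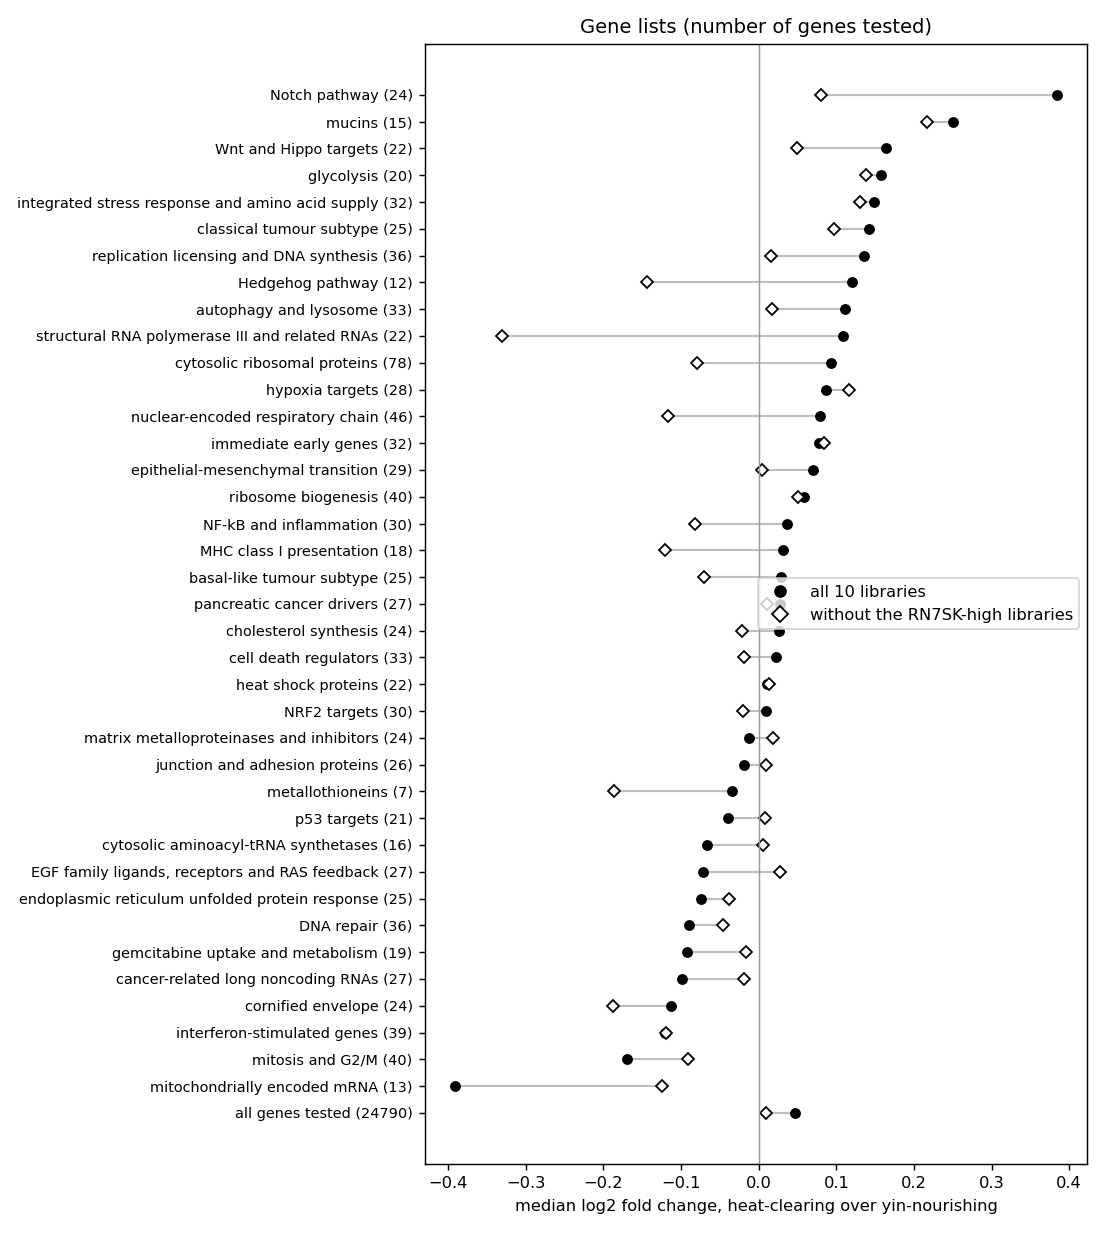
Median log2 fold change, heat-clearing over yin-nourishing, of 38 gene lists with the number of genes tested in each, and of all genes at the bottom; filled circles use all samples and open diamonds leave out the RN7SK-high libraries. The Notch pathway is at 0.38 with all samples and 0.08 without those libraries, and mitochondrial mRNA at −0.39 and −0.12, while glycolysis (0.16 and 0.14), mucins (0.25 and 0.22) and interferon-stimulated genes (−0.12 and −0.12) stay in place.

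Differentiation genes showed wide spread within groups. Of 15 mucin genes, all tested, 12 were higher with a median of 0.25 (0.22 without the RN7SK-high libraries) and 0 had an unadjusted p under 0.05. MUC16, the abundant mucin that carries the CA125 antigen, averaged 9885 ± 2212 CPM in heat-clearing and 8308 ± 1676 CPM in yin-nourishing samples (0.25 ± 0.21). MUC5B, a secreted gel-forming mucin, stood at 1428, 2511, 943.83, 2719 and 991.43 CPM in heat-clearing samples, against 1486, 847.17, 1308, 1426 and 897.11 CPM in yin-nourishing samples. Heat-clearing replicates 02 and 07 were the highest of the 10 and the other 3 lay within the yin-nourishing range. MUC1, a membrane mucin, averaged 215.06 ± 82.8 CPM in heat-clearing and 158.75 ± 18.02 CPM in yin-nourishing samples (0.44, and 0.01 without the RN7SK-high libraries). Of 28 listed genes of the classical subtype of pancreatic cancer 25 were tested, 17 of them higher, and of 25 basal-like genes 13 were higher, with medians of 0.14 and 0.03, which were 0.097 and −0.07 without the RN7SK-high libraries. The median of the classical genes was −0.03 without heat-clearing replicate 07.

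Among junction proteins the list was even, with 13 higher and 13 lower of 26. MARVELD3, a tight junction protein, stood at 4.86, 7.82, 4.9, 8.02 and 6.36 CPM in heat-clearing samples, against 3.39, 3.39, 3.9, 4.86 and 3.18 CPM in yin-nourishing samples. The groups were separated by a margin that vanishes on rounding, with a log2 fold change 0.77 ± 0.23 (SE, unadjusted p = 0.00321) and 0.78 without the RN7SK-high libraries. CLDN4, a claudin, averaged 112.41 ± 36.04 CPM in heat-clearing and 82.4 ± 10.2 CPM in yin-nourishing samples (0.45, and 0.09). Of 19 genes of gemcitabine uptake and metabolism 13 were lower with a median of −0.09, and 11 with a median of −0.02 without the RN7SK-high libraries. SLC29A2, an equilibrative nucleoside transporter, was the member with an unadjusted p under 0.05, at 7.88 ± 2.49 CPM in heat-clearing and 5.55 ± 1.47 CPM in yin-nourishing samples (0.51, and 0.21 without the RN7SK-high libraries). Of 27 driver genes of pancreatic cancer 15 were higher, 2 at an unadjusted p under 0.05, namely the kinase gene STK11 (0.54, and 0.14 without the RN7SK-high libraries) and the chromatin remodeller SMARCA4 (0.33, and 0.12).

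Interferon-stimulated genes were mostly lower, 25 of 39, with a median of −0.12, and 31 of 39 without the RN7SK-high libraries at the same median. At an unadjusted p under 0.05 there were 3 lower and 2 higher. The list summed to 2245 to 2522 CPM of all counts in heat-clearing samples. In yin-nourishing replicates 01, 05 and 07 it summed to 2911, 2909 and 3121 CPM, above that range. Yin-nourishing replicate 04, at 2319 CPM, lay within the range and replicate 10, at 2138 CPM, below it, so the groups overlapped. IFIT5, an antiviral RNA-binding protein, averaged 43.5 ± 8.1 CPM in heat-clearing and 59.7 ± 11.6 CPM in yin-nourishing samples (-0.46 ± 0.20, and -0.28 without the RN7SK-high libraries). ISG15, a ubiquitin-like modifier, averaged 48.4 ± 25.6 CPM in heat-clearing and 27.9 ± 9.18 CPM in yin-nourishing samples (0.79, and 0.14 without the RN7SK-high libraries). The smallest p of the list belonged to IRF9, the DNA-binding subunit of the complex through which type I interferon acts, at 6.27, 19.2, 6.13, 30.3 and 14.3 CPM in heat-clearing samples, against 78.9, 82.4, 74.4, 89.8 and 9.54 CPM in yin-nourishing samples. Yin-nourishing replicate 10 was within the range of the heat-clearing samples and the other 4 were well above it, with a log2 fold change -2.14 ± 0.60 (SE, unadjusted p = 0.0025).

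IRF9 shares 1838 exonic bases on the same strand with AL136295.5. That gene stood at 54.2, 39.9, 98.3, 61.4 and 80.5 CPM in heat-clearing samples, against 13.2, 14.7, 1.09, 23.1 and 93.7 CPM in yin-nourishing samples. Where one of the 2 was low the other was high. Their sum was 82.1 ± 20.9 CPM in heat-clearing samples and 96.1 ± 13.9 CPM in yin-nourishing samples, with a log2 fold change of −0.23 ± 0.18 (SE, unadjusted p = 0.211 by edgeR's test of the summed counts).

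The same exchange was found at other genes. MATR3, a nuclear matrix protein, has 2 rows in the table. The first stood at 21.6, 71.5, 77.4, 18.6 and 22.9 CPM in heat-clearing samples, against 89.6, 172.27, 169.7, 125.36 and 92.4 CPM in yin-nourishing samples, without overlap between the groups. The second averaged 219.8 ± 40.9 CPM in heat-clearing and 155.46 ± 39.8 CPM in yin-nourishing samples. With SNHG4, which shares 626 exonic bases with them, both rows summed to 266.6 ± 23.9 CPM in heat-clearing samples and 289.8 ± 1.75 CPM in yin-nourishing samples, and the summed fold change was −0.12, against −1.62 for the first row alone. AC244197.3 was at 365.3 CPM in yin-nourishing replicate 07 and at 0.469 to 3.95 CPM in the other 9 samples. IDS, the lysosomal iduronate 2-sulfatase, with which it shares 1529 exonic bases, was at 59.6 CPM in that replicate and at 393.3 to 539.2 CPM in the others, and with LINC00893 the summed fold change was −0.04 in place of −6.09. PIK3R2, a regulatory subunit of phosphoinositide 3-kinase, was at 39.96 CPM in heat-clearing replicate 09 and at 0.035 to 0.303 CPM elsewhere, while AC007192.1 had no count in that replicate. Their summed fold change was 0.36 ± 0.19 (SE, unadjusted p = 0.0626) in place of 6.65. TRIM34, a tripartite motif protein and a DESeq2 call, was at 5.91 and 8.52 CPM in heat-clearing replicates 01 and 03, where TRIM6-TRIM34 had no count, and at 0.0226 to 0.308 CPM in the other 8 samples. Its fold change of 5.32 became −0.27 when both were summed. The leading higher gene AC068580.4, at 12.5 ± 7.09 CPM in heat-clearing and 4.37 ± 1.41 CPM in yin-nourishing samples, overlaps CTSD and IFITM10. Its 1.52 became 0.82 when the 3 were summed, but no exchange with CTSD was seen. CTSD made up most of the sum and had a higher mean itself, at 805.5 ± 480.9 CPM in heat-clearing and 455.9 ± 100.6 CPM in yin-nourishing samples. That rested on heat-clearing replicates 01 and 02, which held 1503 and 1106 CPM of CTSD. Replicates 03, 07 and 09 held 380.3, 480.5 and 557.2 CPM, within the yin-nourishing range of 378.6 to 624.1 CPM.

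**Figure D5:**
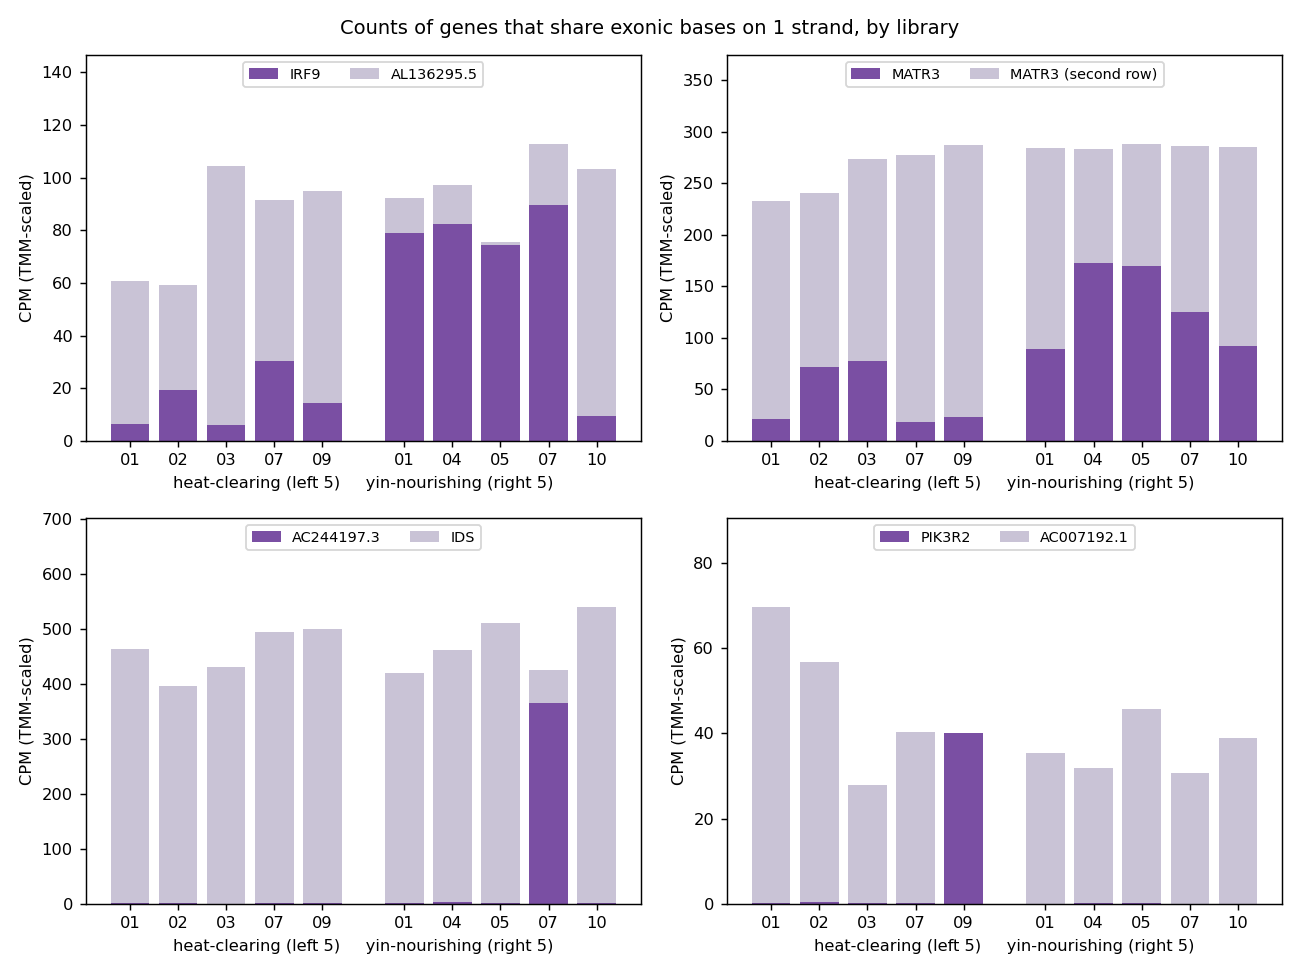
Normalised CPM of genes that share exonic bases, or a symbol, stacked by library, with the 5 heat-clearing replicates on the left and the 5 yin-nourishing replicates on the right of each panel. The dark part (IRF9, the first MATR3 row, AC244197.3 or PIK3R2) and the pale part (AL136295.5, the second MATR3 row, IDS or AC007192.1) trade places between libraries, as in yin-nourishing replicate 07 for AC244197.3 and IDS, while the stacked height varies less.

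Markers of other cell types were low except for those of squamous epithelium. Of 9 keratinocyte markers 8 were tested, and their sum was 787.3 to 2391 CPM of all counts in heat-clearing samples and 833.9 to 1123 CPM in yin-nourishing samples. Fibroblast markers summed to 26.6 to 75.6 CPM in heat-clearing samples and 30.4 to 50.7 CPM in yin-nourishing samples. Endothelial markers summed to 14.2 to 17.1 CPM and 16.1 to 18.5 CPM, and myeloid markers to 51.3 to 81.8 CPM and 52.6 to 63.4 CPM, in heat-clearing and in yin-nourishing samples. Lymphocyte markers reached 8.2 CPM in heat-clearing samples and 6.47 CPM in yin-nourishing samples, and red blood cell markers 0.484 and 0.156 CPM in the same order. Within each of these types the ranges of the groups overlapped. The 19 acinar markers, of which 18 were lower at a median of −0.97, rested on 2 libraries in each group. Their sums were 72.4 and 393.2 CPM in heat-clearing replicates 02 and 03 and 3.16 to 5.36 CPM in the other heat-clearing samples, and 94.2 and 1046 CPM in yin-nourishing replicates 07 and 10 and 1.998 to 3.88 CPM in the other yin-nourishing samples. Their part in the gene differences above was not tested.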

How the data were processed

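RNA of 20 SW1990 samples was measured by sequencing after removal of ribosomal RNA, with a strand-keeping library kit, per the labels' protocols. Reads went through HISAT2 and StringTie on hg38, per the submitters' processing notes, for which versions, annotation, strand setting and handling of mouse reads are not stated. The authors deposited 1 table of raw counts, whole numbers per gene and sample, with 60656 rows, of which 12589 have no count in any library and 1047 repeat a symbol (kept as separate rows). Groups came from the treatment labels and replicate numbers from the titles.

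Counts of all 20 samples were scaled by TMM and fitted together with edgeR 4.0.16 (R 4.3.3; filterByExpr, minimum count 10; robust quasi-likelihood F-test), and the contrast heat-clearing minus yin-nourishing was adjusted by Benjamini-Hochberg over 24790 genes at a threshold of 0.05. Alternatives were DESeq2 1.42.0, limma 3.58.1 voom, other scalings and filters, covariates, a replicate block, other sets of samples and leaving out each replicate. Tested on simulated data with 23160 genes, this design recovered 60 of 100 genes changed by 1 and 94 of 100 changed by 2 on the log2 scale, with 5 false calls. The changed genes all had a mean log2 CPM of 2 or more. Each gene was drawn independently, and no shift of the RN7SK-high libraries was simulated. The rates therefore do not cover genes of lower counts or data with such a shift. Total counts were 83.3 to 135 M (M, mega) per library. Reads carry no molecular identifiers.

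The comparison, the 50 gene lists and the rule for naming genes were chosen with earlier results of these data known. Named were genes with a mean log2 CPM of 0 or more: the 12 of smallest p in each direction, the 8 of smallest p in each direction without the RN7SK-high libraries, and up to 4 members of smallest p per list; a part of them is described. Older symbols in the lists were matched through RefSeq synonyms. Positions and transcript GC content came from GENCODE on hg38, and same-strand genes with counts that share 200 or more exonic bases with a named gene were also summed with it, which was not possible for RAD50. RN7SK, MUC16, MUC1, MUC5B and the partners at shared loci were added as checks or as abundant members. Some list members are not reported here.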

Additional observations from a re-analysis of the deposited data

Results flagged for a closer look

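Across the 76 groups of 5 values checked for the named genes and library measures, 3 held 1 sample far from the other 4, and chance gives about 1 in 20 groups. BICDL1 was at 1.69 CPM in heat-clearing replicate 03 and at 3.49 to 4.01 CPM in the other 4 heat-clearing samples. AC244197.3 was at 365.3 CPM in yin-nourishing replicate 07 and at 0.674 to 3.95 CPM in the other 4 yin-nourishing samples. PIK3R2 was at 39.96 CPM in heat-clearing replicate 09 and at 0.107 to 0.303 CPM in the other 4 heat-clearing samples.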

How the results depend on the processing

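The number of genes past the adjusted threshold was 0 in the edgeR fits under each alternative and in limma voom, and 26 in DESeq2. The number at an unadjusted p under 0.05, 2547, became 6982 with no filter, 1695 with the 10 samples fitted alone, 1188 with the replicate block, 1235 without the RN7SK-high libraries, 1206 without heat-clearing replicates 01 and 02 alone, 1130 with a term for the RN7SK-high libraries and 1067 with the GC slope. That number was 2879 with the title letter as a covariate. It was 1379 to 4221 when single replicates were left out, with 1379 without heat-clearing replicate 01, 1430 without heat-clearing replicate 02 and 4221 without heat-clearing replicate 03. The number of genes without overlap, 288, became 184 with a strict filter, 101 of them higher. It was 733 without the RN7SK-high libraries and 382 to 1145 without single replicates, as smaller groups overlap less. The difference in RN7SK share was 0.78 to 1.85 percentage points without single replicates, where it passed 0.05 without heat-clearing replicate 03 (1.85, exact p = 0.0476), and −0.0247 without heat-clearing replicates 01 and 02. The difference in mitochondrial mRNA was −5.42 to −3.1 percentage points without single replicates and −1.7 without heat-clearing replicates 01 and 02. The causes were not tested.

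The groups share replicate numbers 01 and 07 only, and these pairs deviated together weakly (correlations of 0.201 and 0.189 over 8760 genes), so the samples share a number and nothing more is known of a pairing. The 35 genes named by rank kept their sign under each alternative run for them, except when overlapping genes were summed. MATR3, AC244197.3 and PIK3R2 came nearer 0 when summed. The second MATR3 row, at 0.50 alone, belonged to a sum at −0.12, the opposite sign. Among other genes, IRF9 also came nearer 0 there, the fold change of TRIM34, 5.32, became −0.27, and that of MVD changed sign without the RN7SK-high libraries (−0.08).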

Other observations

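Other gene groups differed little between the treatments. Of 22 heat shock genes 11 were higher and 11 lower, and HSPB8, a small heat shock protein, had the smallest p of them at 3.59 ± 1.6 CPM in heat-clearing and 2.05 ± 0.714 CPM in yin-nourishing samples (0.81 ± 0.31, and 0.88 without the RN7SK-high libraries). Of 25 genes of the unfolded protein response of the endoplasmic reticulum 15 were lower, with a median of −0.07. Of 30 tested genes of NF-kB signalling and inflammation 16 were higher, with a median of 0.04 that was −0.08 without the RN7SK-high libraries. IL1A, an alarmin cytokine, averaged 30.7 ± 8.3 CPM in heat-clearing and 51.2 ± 15.5 CPM in yin-nourishing samples (-0.74 ± 0.22, and -0.52), and NFKBIE, an inhibitor of NF-kB, averaged 1.14 ± 0.573 CPM in heat-clearing and 0.399 ± 0.146 CPM in yin-nourishing samples (1.52, and 1.24). RELB, a subunit of NF-kB, was at 0.92 and 0.16, and CCL20, a chemokine, at -0.75 and -0.37. None of these genes passed after adjustment by edgeR.

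NRF2 targets were even, 15 higher and 15 lower (13 and 17 without the RN7SK-high libraries), and AKR1C3, a reductase of steroids and carbonyls, averaged 40.3 ± 10.01 CPM in heat-clearing and 57.9 ± 7.09 CPM in yin-nourishing samples (-0.52 ± 0.20, and -0.31 without the RN7SK-high libraries). Of 22 tested Wnt and Hippo targets 15 were higher with a median of 0.16, which was 0.05 without the RN7SK-high libraries. Genes of the epithelial-mesenchymal transition were higher in 21 of 29 with a median of 0.07, which was near 0 without those libraries. Cornified envelope genes were lower in 15 of 24, and in 19 of 24 without the RN7SK-high libraries, with medians of −0.11 and −0.19. MIR17HG, the host transcript of the miR-17-92 cluster, averaged 5.5 ± 0.932 CPM in heat-clearing and 8.34 ± 1.68 CPM in yin-nourishing samples (-0.60 ± 0.21, and -0.54 without the RN7SK-high libraries).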
